A study of Populus ussuriensis with 9 samples.

Results

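In leaves of drought-treated poplar, 207 genes had their highest level in the transgenic line OE14. They were taken from 22848 tested genes, of which they were 0.906%, and from 29764 in the table. A gene was tested if at least 3 of the 9 libraries gave it 1 FPKM or more. FPKM is a fragment count scaled to gene length and to the reads of the library. A tested gene was chosen if log2(mean FPKM + 1) was higher in OE14 than in wild type (WT) by 1 or more and lower in OE18 than in OE14 by 1 or more. Another 3 genes that met both conditions lie in the left-out stretch at the start of chromosome 18 and are not counted. The choice used the levels of all 9 libraries. The height of the OE14 level over WT and over OE18 is therefore a description of what was chosen, and it was not tested.

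DREB proteins are plant transcription factors of the AP2/ERF family. They are known for binding the dehydration-responsive element in the promoters of genes that respond to drought and cold, and for switching such genes on. Their overexpression is a common way to study drought tolerance in plants, and strong overexpression is known to slow growth in several species.

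The plants were Populus ussuriensis of 3 genotypes, with 3 libraries of fully expanded leaf for each. WT carried no transgene, OE14 overexpressed LbDREB6 at a moderate level, and OE18 did so at a high level. All plants were 6 months old, grew in a greenhouse and had water withheld, for 1 week by the protocol and for 2 weeks by the sample descriptions. No watered plants were analysed here. A single line stood for each level, so the level of overexpression and the line cannot be told apart, and the promoter that drives the transgene is not given in the sources used here. The libraries are called biological replicates by the submitters, with no further word on plants, so the spread between them may be partly technical. LbDREB6 was not analysed here, and its level was not checked.

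The read totals that the FPKM values imply ran from 10988010 to 16221919 per library. The table gives locus IDs without gene names, and no table that pairs them was used. Gene functions, the leaf identity of the samples and any promoter element are therefore not described. For the same reason 4 IDs are printed, and other genes are given by chromosome, as read from the ID.

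The 3 OE14 libraries had similar medians over the set, and the height of these medians follows from the choice of the genes by group means. Relative to the WT mean, the median of the 207 genes on the log2(FPKM + 1) scale was 1.29, 1.27 and 1.31 in OE14 replicates 1 to 3. In OE18 it was -0.38, -0.31 and -0.33, and in WT it ran from -0.02 to 0.03. The median of all tested genes lay between 0.00 and 0.07 in each of the 9 libraries. Replicate 1 held the highest OE14 value for 77 of the genes, replicate 2 for 69 and replicate 3 for 61. In bulk leaf, more cells of a type and more RNA per cell cannot be told apart.

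**Figure D1:**
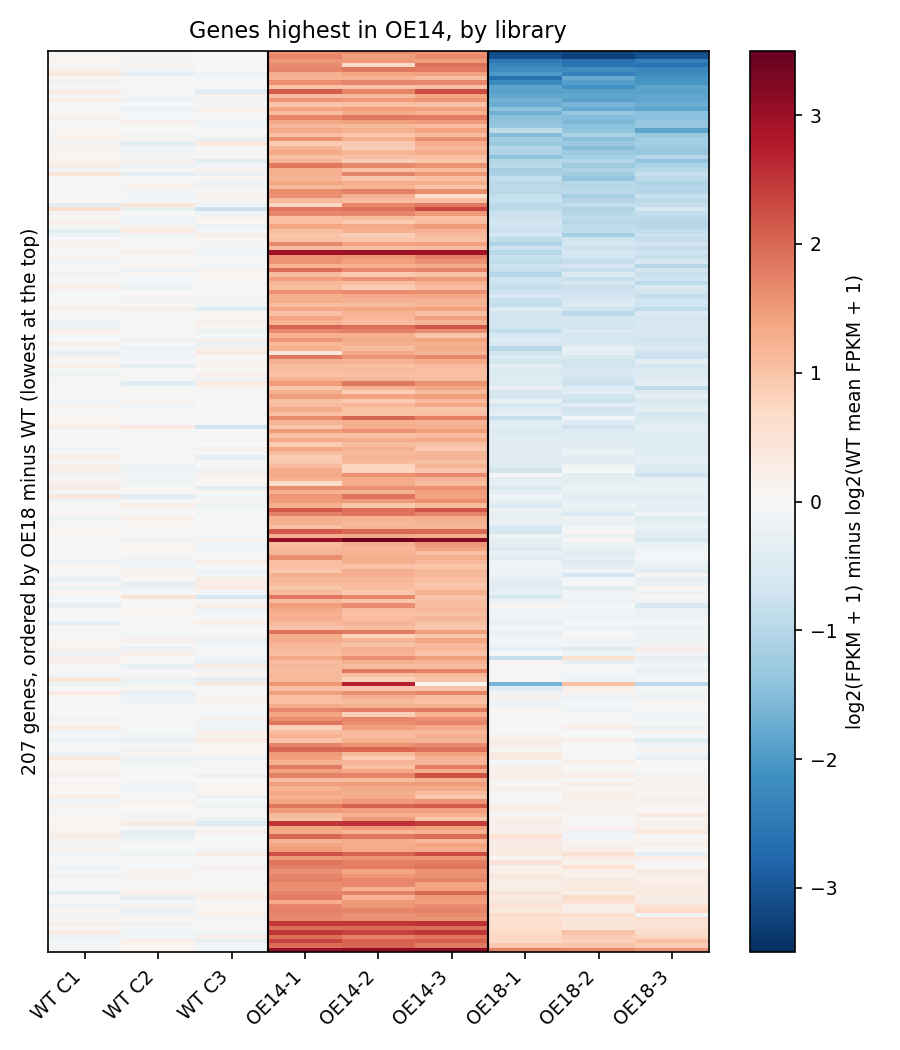
Each row is 1 of the 207 genes and each column 1 of the 9 libraries; colour gives log2(FPKM + 1) minus the log2 value of the WT mean. The OE14 columns are red in nearly every row, with medians of 1.27 to 1.31, while OE18 runs from -3.15 at the top to 1.66 at the bottom.

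The OE14 libraries lay above all WT and all OE18 libraries for 206 of the 207 genes, against 16.5% of all tested genes. By limma with Benjamini-Hochberg adjustment over all tested genes, 206 of them were called higher in OE14 than in WT, against 31.9% of all tested genes. All 207 were called lower in OE18 than in OE14, against 38.8%. These counts follow from the choice of the genes and are given as their description. The exception in OE14 was 1 locus that is not placed on a chromosome. OE14 gave it 78.1, 175 and 27.1 FPKM, WT gave 22.8, 22.8 and 32.4, and OE18 gave 7.69, 53.6 and 13.3. Its libraries overlapped between all groups, and replicate 2 was the highest in both transgenic lines.

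Most genes were not far past the rule. The smaller of both differences had a median of 1.22 on the log2(mean FPKM + 1) scale and reached 1.5 in 56 genes, 2 in 9 genes and 3 in 1 gene. Just inside the rule lay a gene of chromosome 5 with means of 0.439, 1.88 and 0.372 FPKM in WT, OE14 and OE18, and a gene of chromosome 8 with 4.84, 10.7 and 2.29. Just outside lay 2 genes of chromosome 9, with 2.26, 5.5 and 1.22 FPKM and with 11.8, 24.6 and 4.2. In OE14 minus WT these genes were close, with 1.001 inside and 0.997 outside the rule, though their levels differed. The rule thus cuts a continuous range.

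As ratios of mean FPKM, the 151 genes with 30 or more reads in every group had a median of 2.74 for OE14 over WT (2.01 to 13.4) and of 3.74 for OE14 over OE18 (2.07 to 42.4). Of all 207 genes, 43 passed the filter on low values only with the help of the OE14 libraries. The other 164 would have passed it on WT and OE18 alone.

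Falling back in OE18 was 1 of 3 courses among the genes that were higher in OE14. Outside the left-out stretch, 796 tested genes were higher in OE14 than in WT by 1 or more on this scale. In OE18, 207 of them (26%) were lower than in OE14 by 1 or more, 216 (27.1%) were higher again by 1 or more, and 373 (46.9%) lay within 1 of OE14. From the other side, 2106 genes were lower in OE18 than in OE14 by 1 or more, and the 207 made up 9.83% of these. The mirrored rule, lowest in OE14, chose 130 genes. Both differences contain the OE14 libraries, so these numbers share their error.

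**Figure D2:**
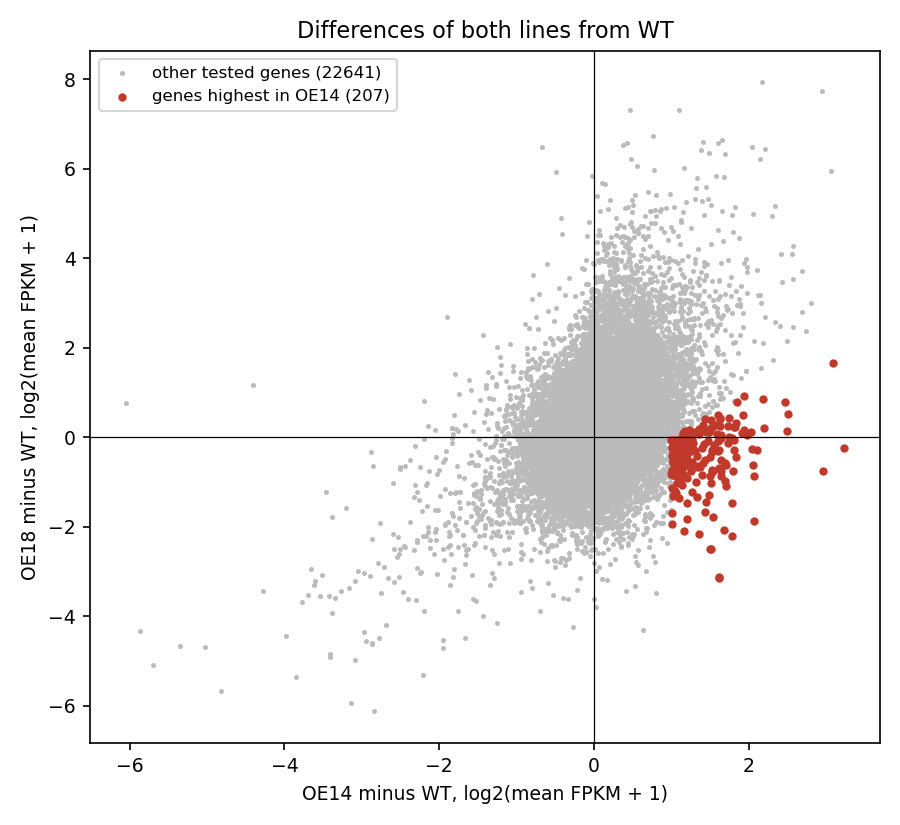
Each point is a tested gene, placed by OE14 minus WT (horizontal) and OE18 minus WT (vertical) on the log2(mean FPKM + 1) scale; red points are the 207 genes. Their vertical position has a median of -0.29, and 31 of them lie at -1 or lower.

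The gene with the highest peak was Potri.006G234900.v3.0, on chromosome 6. Its WT libraries had 1.97, 1.80 and 2.42 FPKM, those of OE14 had 24.4, 31.7 and 27.1, and those of OE18 had 1.47, 2.17 and 1.1. The OE14 libraries stood far above the other 6, which overlapped each other. The next highest peak was that of Potri.017G034700.v3.0, on chromosome 17. The values were 5.35, 6.47 and 5.33 FPKM for WT, 51.0, 52.4 and 51.0 for OE14, and 2.35, 3.35 and 3.18 for OE18. Here the groups were all separate, with OE18 below WT by 0.76 on the log2(mean FPKM + 1) scale. Its OE14 mean of 51.5 ± 0.81 FPKM (SD, n = 3) rests on 4671 reads.

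A further 2 genes were picked after their values were seen, for their very low level in OE18. Potri.010G142800.v3.0 on chromosome 10 had the largest difference between the lines among the 207 genes, -4.77 for OE18 minus OE14. WT gave 12.5, 11.9 and 12.4 FPKM, OE14 gave 39.5, 40.8 and 38.9, and OE18 gave 0.483, 0.475 and 0.532. Its OE18 libraries lay below WT by 3.15 on the log2 scale, the lowest value among the 207 genes. Potri.013G045700.v3.0 on chromosome 13 had 3.34, 2.78 and 1.84 FPKM in WT and 14.9, 11.2 and 16.8 in OE14, and not 1 read in OE18. A group without reads may still hold up to 3 reads over its libraries, so OE14 was at least 175-fold higher than OE18 and WT at least 32.4-fold higher. It was 1 of 6 genes without a read in the OE18 libraries, for which OE14 was at least 35.8-fold to 175-fold higher. In WT all 207 genes had reads, though 2 of them had only 1 to 3. Such limits cover counting error only.

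**Figure D3:**
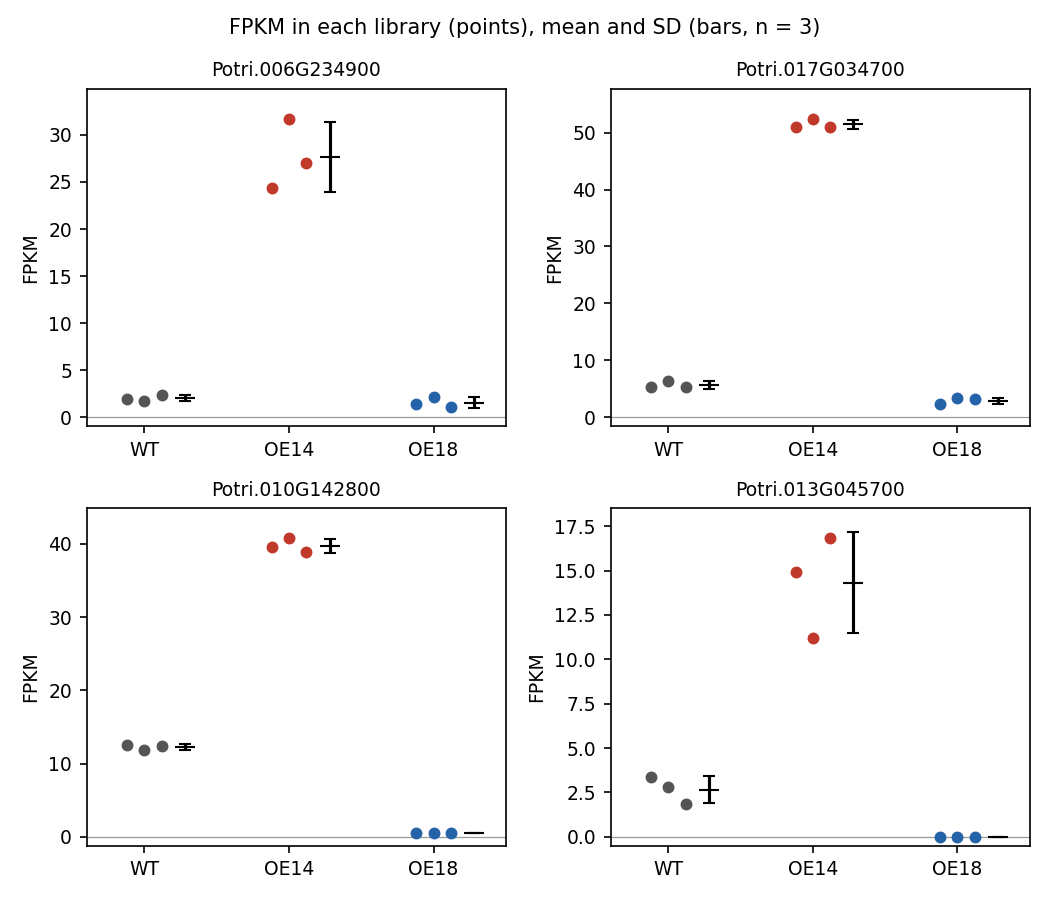
FPKM of the 4 printed genes in each library (points, 3 per genotype) with the group mean and SD (black bars). OE14 is highest throughout; Potri.013G045700 has no read in OE18 and Potri.010G142800 stays at 0.475 to 0.532 FPKM there.

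The 207 genes spanned a wide range of levels. Mean FPKM ran from 0.0763 to 2014 in WT (median 4.33), from 1.34 to 4301 in OE14 (median 13.3) and from 0 to 1773 in OE18 (median 2.49). All tested genes had medians of 7.64, 8.06 and 8.39, so the median of the set was below theirs in WT and OE18 and above it in OE14. The rule and the filter shape this order, since 43 of the 207 passed the filter only with the OE14 libraries. Nothing is read from it. Ranked among all tested genes, 7 of the 207 stood among the 100 most abundant in OE14, 4 in WT and 3 in OE18.

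Together these genes made up 1.66% ± 0.044 of the summed FPKM of a WT library, 4.19% ± 0.12 in OE14 and 1.11% ± 0.029 in OE18 (SD, n = 3 each). The 5 most abundant of them held 62.3% of that sum in OE14. Without these 5, the summed level was 3081 to 3148 FPKM in WT, 8190 to 8501 in OE14 and 2194 to 2324 in OE18.

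The most abundant gene lies on chromosome 4 and reached 4123, 4496 and 4285 FPKM in OE14. Its WT libraries had 1655, 1578 and 1551 FPKM, and those of OE18 had 1777, 1784 and 1759. In OE18 it was slightly above WT in every library. Another gene of chromosome 4 reached 4198 ± 206 FPKM in OE14 (SD, n = 3), with 2014 ± 195 in WT and 1114 ± 72 in OE18. The third in abundance, on chromosome 5, had 743, 667 and 730 FPKM for WT, 2048, 2023 and 1971 for OE14, and 127, 113 and 134 for OE18. The OE18 level was thus near WT in the first of these genes and far below WT in the last.

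The levels in OE18 and WT were set side by side. This difference is the sum of both differences of the rule, so the choice of the genes limits it. A gene could be higher than WT by 1 or more in OE18 only if OE14 exceeded WT by more than the rule asked. The shares are therefore a description. On the log2(mean FPKM + 1) scale, OE18 minus WT had a median of -0.29 over the 207 genes (-3.15 to 1.66), against 0.03 over all tested genes. OE18 was within 0.25 of WT in 75 genes (36.2%, against 22.9% of all tested genes) and within 1 in 175 (84.5%, against 71.9%). It was lower than WT by 1 or more in 31 genes, 15%, against 9.33% of all tested genes, and higher by 1 or more in 1 gene, against 18.8%. A gene under 1 FPKM in WT cannot be lower by 1 on this scale. There were 43 such genes, and the 31 were 18.9% of the remaining 164. The 9.33% still counts tested genes under 1 FPKM in WT, so it is no background for this 18.9%.

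Limma called 109 of the 207 genes lower in OE18 than in WT (52.7%, against 37.9% of all tested genes) and 20 higher (9.66%, against 41.6%). The remaining 78 genes were not called. For these the test did not tell OE18 and WT apart, which does not show that they were equal. After quantile normalization, which gives all libraries the same distribution, 155 were called lower and 10 higher, beside 10647 and 8028 of all tested genes. All 109 were also called higher in OE14 than in WT, a combination found in 7.98% of all tested genes. In 110 genes every OE14 library lay above and every OE18 library below all WT libraries, against 9.73% of all tested genes. The rule asks for a low OE18 level and so favours genes below WT, and nothing is read from these shares.

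The 31 genes that were lower than WT by 1 or more in OE18 had medians of 10 FPKM in WT, 24.6 in OE14 and 1.92 in OE18. The 175 genes within 1 of WT include the 43 genes under 1 FPKM in WT, which could not enter the 31. The other 132 of them had medians of 5.75, 19 and 5.32 FPKM in the same order. The scale admits a low gene to the 31 less easily, so no difference in WT level is read from these medians. The median OE14 minus WT was 1.33 in the 31 and 1.26 in the 132. The only gene of the set that was higher than WT by 1 or more in OE18 is on chromosome 9. WT gave 15.2, 14.7 and 12.6 FPKM, OE14 gave 123, 128 and 132, and OE18 gave 50.2, 47.2 and 43.0, with the libraries of the groups apart from each other.

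Gene length was not used by the rule, and the 207 genes were short. The length that the FPKM values imply had a median of 1331 bases, against 1850 over all tested genes. Genes under 1000 bases were 33.8% of the set and 12.9% of all tested genes, while genes of 3000 bases or more were 4.83% and 15.4%. The 164 genes that passed the filter without the OE14 libraries had a median of 1374 bases, and 31.1% of them were under 1000 bases. The share of short genes was above that of all tested genes in each of 4 classes of OE14 level. It was 45.7% against 18.9% under 5 FPKM in OE14, 27.2% against 8.74% from 5 to 20, 31.5% against 9.67% from 20 to 100, and 38.5% against 16.4% at 100 or more. The classes are cut on the OE14 level, which the rule used. At the same FPKM a short gene has fewer reads, and the part of this in the shares was not tested.

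Other genes higher in OE14 were also shorter than average, though less so. Median length was 1550 bases for the 373 genes whose OE18 level lay within 1 of OE14, and 1554 for the 216 that were higher again in OE18. It was 1788 bases for the 130 genes lowest in OE14 and 1825 for the 1899 genes that were lower in OE18 than in OE14 without having been higher in OE14 by 1. Genes in which both differences were under 1 had a median of 1927. Genes are not independent replicates, so these lengths are a description and were not tested.

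**Figure D4:**
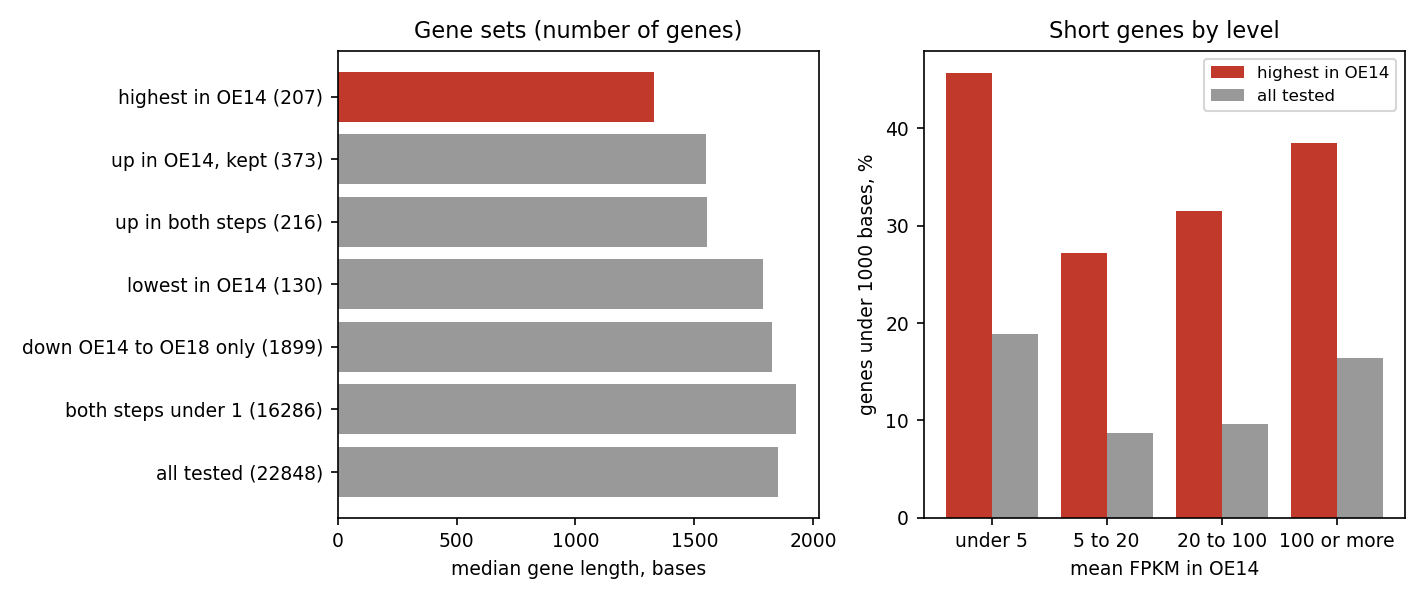
Left, median gene length in bases of the 207 genes (red) and of other sets, with the number of genes in brackets. Right, percentage of genes under 1000 bases by mean OE14 level, in the set (red) and in all tested genes (grey); red is higher in all 4 classes.

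The genes came from all 19 chromosomes. They were 0.91% of the tested genes outside the left-out stretch. The share was lowest on chromosome 16, with 2 of 819 genes (0.24%), and highest on chromosome 19, with 10 of 571 (1.75%), and chromosome 17, with 12 of 719 (1.67%). Among loci not placed on a chromosome, 12 of 497 (2.41%) belonged to the set. A stretch at the start of chromosome 5, whose 297 tested genes had a median OE14 minus WT of -0.56, held 0 of the 207. Counts per chromosome are small, and the differences between chromosomes were not tested.

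**Figure D5:**
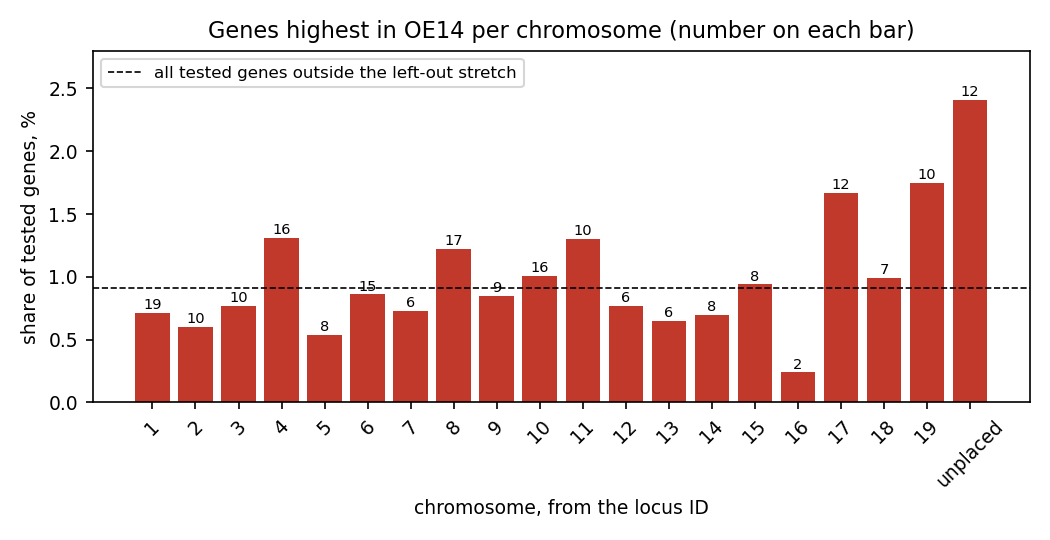
Bars give the percentage of the tested genes of each chromosome that belong to the set, with the number of genes above the bar; the dashed line is the 0.91% of all tested genes outside the left-out stretch. Chromosome 16 is the lowest at 0.24% and the unplaced loci are the highest at 2.41%.

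Most of the genes stood alone among their neighbours. Of the 195 genes placed on chromosomes, 14 had another gene of the set next to them or 1 listed locus away, and these formed 6 runs. How many would do so in a random set of this size was not computed. A run of 3 consecutive loci on chromosome 9 held genes that differed in OE18. Its first gene averaged 57.5 ± 4.5 FPKM in WT, 145 ± 6.3 in OE14 and 28.2 ± 1.1 in OE18 (SD, n = 3 each). The middle gene is the one described above that stayed above WT in OE18. The last of the run had 3.41 ± 0.80, 23.5 ± 1.1 and 6.59 ± 1.1 FPKM in the same order. All had their highest level in OE14, but OE18 lay below WT in the first and above it in the other two.

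On chromosome 4, a run of 3 genes had similar values, with OE14 minus WT of 1.54, 1.40 and 1.44 and OE18 minus OE14 of -2.29, -2.24 and -1.94. Also on chromosome 4 lay a pair with the same length of 1307 bases, with means of 2.33, 7.81 and 1.83 FPKM and of 8.29, 37.4 and 6.72 in WT, OE14 and OE18. How reads shared between similar genes were counted is not given in the sources used here, so values of neighbouring genes may not be independent.

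The 291 tested genes directly beside the 195 genes placed on chromosomes were not chosen by the rule. Their median OE14 minus WT was 0.07, close to the 0.06 of the other tested genes on chromosomes. Their median OE18 minus OE14 was -0.20, against 0.00 in the others. Limma called 102 of them higher in OE14 than in WT (35.1%, against 31.9% of all tested genes) and 147 lower in OE18 than in OE14 (50.5%, against 38.8%). Both calls applied to 64 of them (22%, against 14.1% of all tested genes). Among the other tested genes on chromosomes, these shares were 31.2%, 38.1% and 13.1%. A difference between neighbours and other genes was not tested.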

How the data were processed

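Transcript levels were deposited by the authors as 1 table of FPKM for 29764 loci and 9 libraries. Bowtie2 2.2.3 and HISAT2 2.1.0 were used, per the submitters' processing notes. Not given in the sources used here are the counter, genome build, annotation release and use of strand. The 6 columns of OE14 and OE18 carry the sample titles, and the 3 columns headed C were taken as WT by elimination, without replicate numbers.

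Library totals, gene lengths and whole reads were recovered from the steps of the FPKM values. All 29005 genes above 0 in 2 or more libraries gave whole reads within 1e-06 and whole lengths within 1e-05 bases. Libraries of a genotype differed by more than counting error, the median chi-square being 1.6 to 2.22 times its chance value, and each counted as 1 sample.

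Genes with 1 FPKM or more in at least 3 libraries were tested as log2(FPKM + 1), with a pseudocount of 1, by limma 3.58.1 in R 4.3.3, in 1 fit over all 9 libraries with a trend in the variance prior and 6 residual degrees of freedom. P-values were two-sided, adjusted by the Benjamini-Hochberg method over all 22848 tested genes, and called under 0.05. The fit and the recovery were tested on simulated data. Differences on the log2(FPKM + 1) scale understate those of low genes.

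The genes and lists were chosen with earlier results of these data known. The naming rule allowed up to 2 genes without a description. For these the 2 of greatest peak height were taken, and 2 more were added. Also listed beforehand were 36 gene lists and 5 marker lists by description and 9 promoter motifs, none of which could be applied without gene names or sequences. Results were also computed with other pseudocounts, filters, scalings, thresholds and variance priors, each library left out, and a replicate block. Voom on recovered reads was added after seeing the data.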

Additional observations from a re-analysis of the deposited data

Results flagged for a closer look

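The lines lay on opposite sides of WT in 110 of the 207 genes, with every OE14 library above and every OE18 library below all WT libraries, against 9.73% of all tested genes. The rule favours such genes, and the difference was not tested beyond it. Among the printed genes this held for Potri.017G034700.v3.0, with OE18 minus OE14 of -3.73 on the log2(mean FPKM + 1) scale, for Potri.010G142800.v3.0, with -4.77, and for Potri.013G045700.v3.0, with -3.94.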

How the results depend on the processing

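The number of genes chosen depends on the scale and the threshold. It was 333 with a pseudocount of 0.1 (which includes all 207), 262 with 0.5, 121 among genes with a mean of 5 FPKM or more, 459 with both differences at 0.75 and 56 with both at 1.5. It was 178 after median-of-ratios scaling, 187 after quantile normalization (170 of them shared) and 266 after rescaling to the same sum. Under both pseudocounts and these 3 scalings, 162 of the 207 (78.3%) were chosen each time. With each library left out in turn it was 180 to 214, and 142 of the 207 (68.6%) were in all 9 sets. Of the 207, 121 had a mean of 5 FPKM or more, and all 121 were called higher in OE14 than in WT and lower in OE18 than in OE14, beside 35.3% and 45.8% of the 15044 genes at that level, which the rule fixes. Calls of the 207 higher in OE18 than in WT fell from 20 to 10 after quantile normalization and to 13 after rescaling to the same sum. In OE18 against WT, the median over all genes was 0.03 as deposited and -0.15 after quantile normalization, and that of the 207 was -0.30 and -0.57. Among all tested genes, 5883 were called higher and 5787 lower in OE14 than in WT after that scaling, against 7297 and 4777 as deposited. Leaving out libraries gave 97 to 106 genes called lower and 17 to 21 higher in OE18 than in WT. The shares of all tested genes were 36% to 38.5% and 37.3% to 41.8%. Without an OE14 library, 30 of the 207 failed the filter, and 97 to 99 of the other 177 were called lower. Voom on recovered reads called 207, 207 and 108 in place of 206, 207 and 109, beside 32.8%, 39.2% and 37.7% of all genes. The rule fixes all but the last count. Potri.006G234900.v3.0 was not called between OE18 and WT, but was called after quantile normalization (-0.64), after rescaling to the same sum (-0.39) and without OE18 replicate 2 (-0.42). The cause was not tested. OE14 and OE18 share replicate numbers. Same-numbered libraries had correlations of 0.10, 0.06 and -0.02 across genes, and differently numbered ones had -0.12 to 0.07. With so few libraries, these values cannot show whether the numbers pair them. With the replicate block, 207 genes were called lower in OE18 than in OE14, which follows from the rule, beside 38.8% of all tested genes. In either direction, 17738 of all genes were called with the block and 17745 without. A block with WT was not possible because its columns carry no numbers. EdgeR and the promoter alternative were not run. Low levels limit the smallest differences, since 53 of the 207 genes had under 30 reads in OE18 and 34 in WT.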

Other observations

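Of the 12 unplaced loci in the set, 4 have locus numbers close together. All were low in WT, with means of 0.21 to 1.28 FPKM, and had 1.64 to 6.08 FPKM in OE14. In OE18 the means were 1 FPKM in the first and 0.342 in the second, with no read in the third and 0.0438 FPKM in the last. The last gene had only 2 reads in OE18 and 8 in WT, so its OE18 level cannot be told apart from that of the third. Whether they lie beside each other in the genome was not examined.

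The gene of the set on chromosome 2 with 109 ± 11 FPKM in WT and 378 ± 18 in OE14 had 23.0 ± 0.66 in OE18 (SD, n = 3 each). Its 3 groups did not overlap.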
